A study of Mus musculus with 11 samples.

Results

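Amn, Cubn, Lrp2, Dab2 and Lrpap1 encode the parts of an endocytic receptor of the embryonic endoderm, and their transcripts were followed here in naive extra-embryonic endoderm (nEnd), stem cells from the mouse that stand in culture for the primitive endoderm of the blastocyst. The members were chosen by name: the receptor pair Amn and Cubn, the receptor Lrp2 that works beside them, the adaptor Dab2 and the receptor chaperone Lrpap1. They are 5 of the 48952 genes in the bulk table and 5 of the 32285 genes in the single-cell matrices, and all 5 passed the filter on low counts that left 14185 bulk genes for testing. In the sorted populations, Amn and Cubn rose about 4-fold from OCT4-negative to OCT4-positive endoderm. In single cells without Oct4 deletion, their transcripts lay mostly in 1 cluster of endoderm-like cells, and in the library with 4OHT that cluster was nearly empty.

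Cubilin, encoded by Cubn, is a large peripheral membrane protein with no membrane anchor of its own. It binds intrinsic factor with vitamin B12, apolipoprotein A-I, albumin and transferrin, and amnionless, encoded by Amn, anchors it and carries it to the apical surface. Megalin, encoded by Lrp2, is a giant receptor of the lipoprotein receptor family that takes up carrier proteins, lipoproteins and vitamins in the yolk sac endoderm and the kidney proximal tubule. Dab2 links the tails of these receptors to clathrin coats, and the protein of Lrpap1, known as RAP, keeps receptors of the lipoprotein receptor family free of ligand in the endoplasmic reticulum. In mice, loss of Amn stops the embryo around the time of gastrulation, and the visceral endoderm is known for strong use of all of these proteins.

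The bulk data came from an nEnd line with an OCT4-mCherry reporter, kept untreated in RACL medium (Activin A, CHIR99021 and LIF) on mouse feeder cells and sorted by flow cytometry. The populations were Pdgfra+ cells, which carried the endoderm receptor PDGFRA without the reporter, DP cells, which carried both, and Oct4+ cells, which carried the reporter alone, with 3 libraries of each. The single-cell data came from nEnd of the Oct4LOF line, which is homozygous for a 4-hydroxytamoxifen (4OHT)-inducible deletion of Oct4, listed as Pou5f1 in the tables. From this line, PDGFRA-positive cells were isolated and then grown without 4OHT (-4OHT) or with it (+4OHT). By the study's account, 4OHT was given only in the first part of the culture, and normal RACL medium followed until sampling. Each condition had 1 library, so that a 4OHT effect cannot be told apart from a difference between libraries. Each reporter or deletion line stands for itself alone, and the study calls the bulk libraries biological replicates. Whether they came from separate cultures is not said in the labels, and p-values then measure only the spread between these libraries, which may be technical.

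On the GRCm38 build with the GENCODE vM21 annotation, Amn (ENSMUSG00000021278) lies on the plus strand of chromosome 12 from 111271095 to 111276426. Cubn (ENSMUSG00000026726) and Lrp2 (ENSMUSG00000027070) lie on the minus strand of chromosome 2, at 13276338 to 13491813 and at 69424340 to 69586065. Dab2 (ENSMUSG00000022150) lies on the plus strand of chromosome 15 at 6299788 to 6440712, and Lrpap1 (ENSMUSG00000029103) on the minus strand of chromosome 5 at 35091501 to 35105766. A noncoding gene, Gm13270, overlaps Cubn, and an antisense gene (Gm16311) and a pseudogene (Gm18888) overlap Dab2, so that the counts of these members could hold reads of their partners. The merged exons measured 1843 bases for Amn, 14935 for Cubn, 16701 for Lrp2, 7342 for Dab2 and 4116 for Lrpap1, which matters below because long transcripts collect more bulk reads.

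The promoters of the 3 receptor genes are shown because transcripts of Amn and Cubn rose and fell together while their promoters differ in base composition. The RefSeq sequences of GRCm38.p6 cover the 250 bases before each RefSeq gene start, which for Cubn lies upstream of the GENCODE gene given above and for Lrp2 within it. They run 5′ to 3′ on the gene's strand, with CpG dinucleotides in capitals:
Amn, chr12:111270846-111271095, strand +: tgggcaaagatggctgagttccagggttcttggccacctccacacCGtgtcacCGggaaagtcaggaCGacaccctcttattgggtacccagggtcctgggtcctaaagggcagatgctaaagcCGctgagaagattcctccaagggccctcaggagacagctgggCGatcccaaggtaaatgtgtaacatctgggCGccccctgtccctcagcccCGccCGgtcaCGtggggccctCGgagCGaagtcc
Cubn, chr2:13491877-13492126, strand -: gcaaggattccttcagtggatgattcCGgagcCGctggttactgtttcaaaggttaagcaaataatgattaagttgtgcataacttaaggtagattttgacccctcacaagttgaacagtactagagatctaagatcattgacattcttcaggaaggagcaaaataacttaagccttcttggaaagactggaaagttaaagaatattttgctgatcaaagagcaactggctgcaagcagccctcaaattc
Lrp2, chr2:69586030-69586279, strand -: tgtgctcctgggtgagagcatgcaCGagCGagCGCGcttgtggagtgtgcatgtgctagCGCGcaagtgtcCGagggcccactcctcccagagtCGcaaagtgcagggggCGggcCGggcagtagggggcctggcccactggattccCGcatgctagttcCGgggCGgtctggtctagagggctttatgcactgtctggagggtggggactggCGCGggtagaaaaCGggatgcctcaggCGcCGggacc

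The Amn window held 11 CpG dinucleotides at a GC content of 61.2%, and the Lrp2 window 18 at 66.4%. The Cubn window held 2 at 39.6%, against a median of 6 and 52.4% over 32851 promoter windows of this length. The motifs were chosen after the sequences had been seen, and the windows were searched on both strands for GATAA (GATA factors), ATTGT (the SOX core), ATGCAAAT (the octamer), CAAAGTCC (HNF4) and TGTTTAC (FOXA). None of the 5 occurred in the Amn, Cubn or Lrp2 window. GATAA occurred once in the upstream Dab2 window of chr15:6299539-6299788 and once in the Lrpap1 window, and in 22.6% of all windows. The other motifs were found in 27.7%, 1.6%, 1.2% and 3.17% of all windows, in the order given.

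The members' levels in the sorted populations are given as CPM, the normalised read count scaled to a common library size. The Pdgfra+ libraries, replicates 1 to 3, held 210, 164 and 117 CPM of Amn, the DP libraries 460, 818 and 710, and the Oct4+ libraries 5.81, 19.03 and 5.43. For Cubn the Pdgfra+ libraries held 687, 728 and 470 CPM, the DP libraries 1450, 2770 and 2850, and the Oct4+ libraries 10.9, 43.9 and 12.4. The 3 populations did not overlap for either gene, with DP highest and Oct4+ lowest. Lrp2 reached 1188, 1051 and 1196 CPM in the Pdgfra+ libraries, 1692, 3097 and 2395 in the DP libraries, and 22.7, 105 and 27.9 in the Oct4+ libraries. Its populations did not overlap either, although DP replicate 1 lay closer to Pdgfra+ than the other DP libraries did.

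The adaptor and the chaperone were less spread between the PDGFRA-positive populations. Dab2 reached 1148, 1216 and 1165 CPM in the Pdgfra+ libraries, 1432, 1876 and 1977 in the DP libraries, and 8.68, 67.2 and 28.5 in the Oct4+ libraries. Lrpap1 reached 1894, 1647 and 1579 CPM, then 2254, 2123 and 2506, and then 82.2, 139 and 150, in the same order. For both genes every DP library was above every Pdgfra+ library, and Oct4+ was far below. The 5 genes together took 0.421% to 0.473% of all reads in Pdgfra+, 0.691% to 1.02% in DP and 0.0144% to 0.0428% in Oct4+. By mean CPM among the 14185 genes tested, Cubn held rank 179 in Pdgfra+ and rank 21 in DP, and Amn rank 1403 and rank 152.

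**Figure D1:**
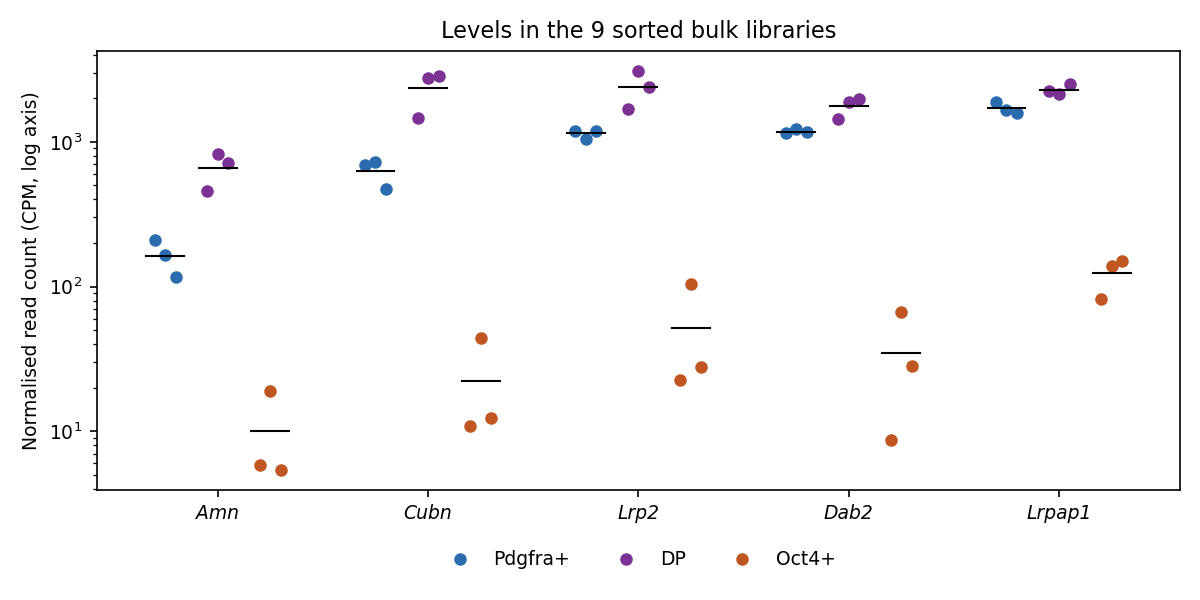
Normalised read count (CPM, log axis) of each gene in the 9 bulk libraries; each point is 1 library and each line the mean of 3. DP libraries lie above Pdgfra+ libraries for all 5 genes, most for Amn and Cubn, and Oct4+ libraries lie below both.

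The question of the first comparison was how OCT4-positive endoderm differs from OCT4-negative endoderm. In DP against Pdgfra+, Amn rose by 2.02 ± 0.43 (log2 fold change ± SE, edgeR's quasi-likelihood test with Benjamini-Hochberg adjustment over all genes, adjusted p = 0.0288), a 4.05-fold change. Cubn rose by 1.91 ± 0.49 (edgeR adjusted p = 0.0463), a 3.75-fold change. Past the threshold, here an adjusted p below 0.05 with an absolute log2 fold change above 1.5, were thus 2 of the 5 members, against 3.20% of all genes tested in the same direction. The difference in Lrp2 was 1.06 ± 0.49 (edgeR adjusted p = 0.204), in Dab2 0.58 ± 0.51 (0.502) and in Lrpap1 0.43 ± 0.21 (0.227), all on the log2 scale and none past the test. All 5 members were free of overlap between the libraries, as were 17.4% of all genes in the same direction, and the median log2 fold change over all genes was 0.02.

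Over all genes tested, deviations of DP and Pdgfra+ libraries from their group means correlated at 0.271, 0.477 and 0.321 within a replicate number. The labels do not call these libraries pairs, and most members did not follow this. Amn was highest in replicate 1 of Pdgfra+ and lowest in replicate 1 of DP. Cubn and Lrpap1 in replicate 3, and Lrp2 in replicate 2, were lowest in Pdgfra+ and highest in DP. Dab2 was lowest in replicate 1 of both. The ratio of DP to Pdgfra+ within a number ranged from 2.19 to 6.08 for Amn and from 2.11 to 6.06 for Cubn. For Lrp2 it ranged from 1.42 to 2.95, for Dab2 from 1.25 to 1.70 and for Lrpap1 from 1.19 to 1.59, so that DP was the higher library in every pair. With the number as a block and the 6 libraries of this comparison alone, edgeR's adjusted p was 0.0184 for both Amn and Cubn. In that fit Lrp2 (0.0240) and Dab2 (0.0267) also passed the adjusted p, at log2 fold changes of 1.04 and 0.58 that did not reach the fold. Both calls held without DP replicate 1 and were lost without any of the other 5 libraries (DP replicate 2 or 3, Pdgfra+ replicate 1, 2 or 3): there edgeR's adjusted p was 0.0507 to 0.114 for Amn and 0.0974 to 0.162 for Cubn, with log2 fold changes of 1.83 to 2.24 and of 1.74 to 2.03.

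Markers of other cells moved with the same contrast. Of 10 epiblast markers, 9 were past the threshold upward in DP, and their summed level ran from 815 to 1462 CPM in DP against 252 to 369 CPM in Pdgfra+. Of 10 general endoderm markers none was past it, with summed levels of 20960 to 32172 CPM in DP and 32128 to 43190 CPM in Pdgfra+. None of 10 visceral endoderm markers was past it either. Their sum of 255 to 458 CPM in DP and 463 to 614 CPM in Pdgfra+ was mostly Cyp26a1, and without that gene it was 123 to 168 CPM in DP and 117 to 135 CPM in Pdgfra+, with a median log2 fold change of 0.16 over the 10. Feeder fibroblast markers summed to 8.23 to 11.4 CPM in DP and 4.48 to 18.7 CPM in Pdgfra+, with up to 5 of 10 at 0 in a library. Of 8 two-cell markers 1 was past it upward, at summed levels of 8.23 to 30.2 CPM in DP and 1.46 to 3.89 CPM in Pdgfra+. The part of any of these in the rise of Amn and Cubn was not tested, and in bulk samples fewer cells of a type and less RNA per cell cannot be told apart.

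The other comparisons set each endoderm population against cells with the reporter alone, which the study describes as de-differentiated. In DP against Oct4+ all 5 members rose, as did 13.1% of all genes, by a log2 fold change of 6.72 ± 0.61 for Cubn, 6.04 ± 0.53 for Amn, 5.67 ± 0.62 for Dab2, 5.53 ± 0.59 for Lrp2 and 4.21 ± 0.24 for Lrpap1. EdgeR's adjusted p ran from 2.19e-06 for Lrpap1 to 5.31e-05 for Dab2. In Oct4+ against Pdgfra+ all 5 fell, as did 14.7% of all genes, with log2 fold changes of -5.08 ± 0.60 for Dab2, -4.81 ± 0.56 for Cubn, -4.47 ± 0.56 for Lrp2, -4.02 ± 0.49 for Amn and -3.79 ± 0.23 for Lrpap1 (edgeR adjusted p from 1.86e-06 to 8.67e-05). No member overlapped between the populations in either comparison, as was so for 30.7% of all genes higher in DP and 34.5% lower in Oct4+. Both comparisons use the Oct4+ libraries, so that the values are given side by side and are not independent. Within Oct4+, replicate 2 held the highest level of Amn, Cubn, Lrp2 and Dab2, and also the highest summed endoderm markers, at 348 CPM against 168 and 139 CPM. The part of that residue in the members' Oct4+ levels was not tested.

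**Figure D2:**
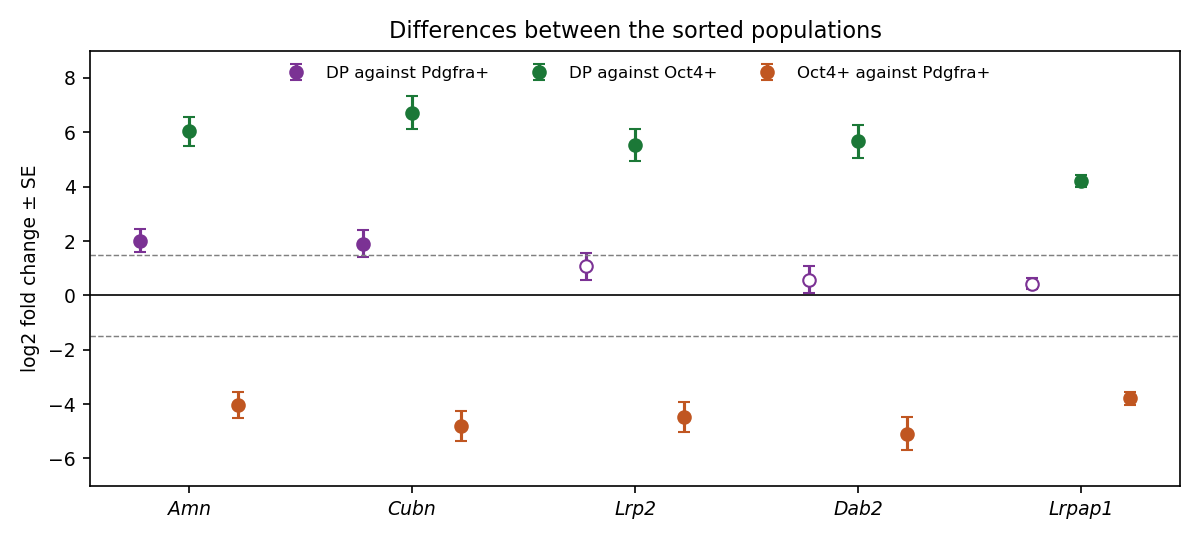
Log2 fold change ± SE of each gene in the 3 comparisons; filled points are past the adjusted p and the log2 fold change of 1.5 (dashed lines), open points are not. In DP against Pdgfra+ only Amn and Cubn among the 5 are filled, while all 5 are filled in both comparisons with Oct4+.

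Levels between genes were compared per length, as RPKM, the CPM divided by the merged exon length in kilobases. In Pdgfra+ the order was Lrpap1 at 415 ± 40.2 RPKM (SD, n = 3), Dab2 at 160.2 ± 4.77, Amn at 88.8 ± 25.3, Lrp2 at 68.6 ± 4.89 and Cubn at 42.1 ± 9.29. In DP it was Lrpap1 at 557 ± 47.2, Amn at 360 ± 99.8, Dab2 at 239.9 ± 39.5, Cubn at 158 ± 52.6 and Lrp2 at 143 ± 42.1. Neighbours in this order lay within their spread (SD) for Amn and Lrp2 in Pdgfra+. In DP this was so for Amn and Dab2, for Dab2 and Cubn, and for Cubn and Lrp2. By the means Amn thus passed Dab2 in rank, within that spread, and Cubn drew level with Lrp2. Amn was above Dab2 within every DP library, but Amn in DP replicate 1 (249 RPKM) lay below Dab2 in DP replicate 3 (269 RPKM).

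Per length, Amn exceeded Cubn by a ratio of 2.47, 1.83 and 2.01 in Pdgfra+ replicates 1 to 3 and of 2.57, 2.39 and 2.02 in DP. These values overlapped between the populations (exact permutation test of the means, two-sided, p = 0.4). In Oct4+ the ratio was 4.34, 3.51 and 3.55, above every library of the other populations, at member levels near the lowest. The ratio of Lrp2 to Cubn was 1.55, 1.29 and 2.28 in Pdgfra+ and between 0.75 and 1.04 in the 3 DP libraries, without overlap (exact permutation p = 0.1, the smallest that 3 against 3 libraries allow). Over the 12 such tests of 4 ratios, the lowest adjusted p was 0.24.

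Across the 9 libraries, Amn and Cubn correlated at r = 0.997 on log2 CPM. This is a description of libraries in 3 separate groups that share cells' identity and library scaling. Over the 6 PDGFRA-positive libraries the value for this pair was 0.987, and for the other pairs of members it ran from 0.773 (Lrp2 and Lrpap1) to 0.973 (Cubn and Dab2). Among 9599 genes with a mean of at least 10 CPM, the genes most like Amn over 9 libraries were Wdfy1 (r = 0.993), Clic5 (0.993) and Uap1l1 (0.992). Those most like Cubn were Wdfy1 (0.995), Mpp1 (0.992) and the WNT inhibitor Dkk1 (0.992), with means of 41.9, 134 and 3.54 CPM in the Pdgfra+, DP and Oct4+ populations. Klb, a co-receptor for endocrine FGFs, was most like Lrp2 (0.998), Foxq1, a forkhead factor, most like Dab2 (0.996), and the chaperone Calr most like Lrpap1 (0.999).

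The other genes of the uptake route were placed from a list of 76 genes, of which 70 were tested. In DP against Pdgfra+, 4 of the 70 were past the threshold upward (3.20% of all genes) and none downward (0.691%). They were the lipoprotein receptor family members Lrp11 (8.34 to 26.6 CPM) and Sorl1, a sorting receptor (6.65 to 19.5 CPM), the lipoprotein lipase Lpl (0.465 to 2.67 CPM) and the folate receptor Folr1. Its libraries held 62.4, 108 and 53.5 CPM in Pdgfra+ cells and 145, 341 and 249.5 CPM in DP cells (log2 fold change 1.72 ± 0.35, edgeR adjusted p = 0.0238). No tail adaptor (8 genes) and no gene of the clathrin coat (15 genes) passed even the adjusted p, which 4.62% of all genes passed upward and 2.26% downward. Without a single library the count of 4 ranged from 0 to 4: it was 0 without DP replicate 2 or 3 or Pdgfra+ replicate 3, 1 without Pdgfra+ replicate 2 and 2 without Pdgfra+ replicate 1.

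Other receptors named here for their overlapping ligands did not pass the test in DP against Pdgfra+. Lrp1, a broad lipoprotein receptor, stood at 48.1 ± 9.90 CPM in Pdgfra+ and 31.1 ± 11.4 CPM in DP (SD, n = 3, edgeR adjusted p = 0.243). In the same order Vldlr stood at 16.2 ± 9.79 and 16.6 ± 9.95 CPM (0.975), and Cd320, the transcobalamin receptor that takes vitamin B12 into most cells, at 35.4 ± 4.996 and 41.5 ± 9.16 CPM (0.517). Apoe, a protein of lipoproteins and a ligand of this receptor family, was at 828, 648 and 555 CPM in the Pdgfra+ libraries and at 1406, 1952 and 1623 CPM in the DP libraries. Its log2 fold change of 1.29 ± 0.17 passed the adjusted p (0.0101) without reaching the fold.

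Against Oct4+, 22 of the 70 genes were past the threshold upward in DP (13.1% of all genes) and 4 downward (14.6%). The upward genes of each role with the largest change were Vldlr and Lrp10 among receptors, Calr and Pdia3 among chaperones, and the motor Myo6 among adaptors (481 against 37.9 CPM). Of the coat they were Snx9, Hip1 and the clathrin heavy chain Cltc, and of the endosome Clcn5, an acidifying chloride transporter (430 against 31.9 CPM), and Rab11a. Ligands were led by Clu, Gc and Apob, and the vitamin genes by Folr1 and Lmbrd1. The 4 downward were Sorl1 (19.5 CPM in DP, 150.1 CPM in Oct4+), Lrp1 (31.1 and 135 CPM), Lpl (2.67 and 46.6 CPM) and Rab38. Rab38, a GTPase, held 2 reads over the DP libraries and 205 over the Oct4+ libraries, a ratio of 77.0 with a 95% counting interval of 21.1 to 640.3.

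In Oct4+ against Pdgfra+, 23 of the 70 genes were past the threshold downward (14.7% of all genes) and 4 upward (17.3%). Vldlr, Calr, Pdia3, Myo6, Snx9, Hip1, Cltc, Clcn5, Rab11a, Clu, Gc and Lmbrd1 were again lower in Oct4+. Also lower was the chaperone Hsp90b1 (1746 CPM in Pdgfra+, 600.5 CPM in Oct4+). Lpl (0.465 and 46.6 CPM), Sorl1 (6.65 and 150.1 CPM), Lrp11 (8.34 and 58.8 CPM) and Rab38 were higher in Oct4+. For Rab38 these were 3 reads over the Pdgfra+ libraries and 205 over Oct4+, a ratio of 59.1 (95% counting interval 19.95 to 289). Folr1 was at 59.7 CPM in Oct4+ and 74.5 CPM in Pdgfra+ (edgeR adjusted p = 0.431), so that of the 3 populations DP alone stood high. Cd320 was at 38.1 CPM in Oct4+ and passed the test in no comparison.

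In the single-cell libraries, 6896 barcodes without and 7283 with 4OHT were deposited, and 21 barcode sequences occurred in both. Cells with at least 1000 genes and at most 10% mitochondrial UMIs numbered 5324 and 6299, at medians of 17948 and 12647 UMIs. Pou5f1, the deleted gene, stood at 40.4 CPM without and 2.47 CPM with 4OHT over these cells, and at 15.3 and 1.74 CPM in endoderm-like cells. Where the deleted part lies against the 3′ tags of this assay is not given in the sources used here. Cells were clustered with the 5 members and the rest of the uptake list left out of the clustering genes, and clusters were named from marker genes by a rule set after the clusters had been seen.

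Of 8 clusters, 0, 1 and 4 were endoderm-like, each with 8 of 10 endoderm markers expressed, and 2 and 3 were epiblast-like with all 10 epiblast markers. By the same rule cluster 4 also had 3 epiblast markers and 1 trophectoderm marker expressed, and clusters 0 and 1 had 0 of either. Endoderm-like cells numbered 1379 without 4OHT (25.9% of the cells kept) and 6062 with it (96.2%). Epiblast-like cells numbered 3830 and 4, although both cultures began from PDGFRA-positive cells. Different clusters held most of the endoderm-like class. Without 4OHT, 784 cells were in cluster 4, 407 in cluster 1 and 188 in cluster 0. With 4OHT, 3872 were in cluster 0 (led by Gkn1, Gkn2 and Tff1), 2163 in cluster 1 (led by Car4 and Pitx1) and 27 in cluster 4. With 1 library a condition, a cluster mostly of 1 library may be that library and not a cell type.

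Cluster 4 carried the Amn and Cubn transcripts, though neither gene had been used to form it. Without 4OHT, Amn stood at 468 CPM there (95% exact Poisson interval 457 to 479, for counting error only, as are all intervals below), at 7.36 CPM (4.12 to 12.1) in cluster 0 and at 8.14 CPM (5.91 to 10.9) in cluster 1. Cubn stood at 653 CPM (640.0 to 666), 30.4 CPM (23.3 to 39.0) and 49.6 CPM (43.8 to 55.9) in clusters 4, 0 and 1. Both genes thus lay many fold lower outside cluster 4, and by fold over all other cells they were the leading genes of that cluster. The other members were less uneven. Lrp2 stood at 619, 239 and 265 CPM, Dab2 at 1176, 503 and 561 CPM, and Lrpap1 at 1793, 1545 and 1124 CPM in clusters 4, 0 and 1.

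Epiblast-like cells of the same library served as a reference. In them Amn stood at 5.02 CPM, Cubn at 4.62, Lrp2 at 7.12, Dab2 at 8.94 and Lrpap1 at 89.4 CPM. Whether these levels are background of the droplet assay or the cells' own transcripts was not tested. Amn in clusters 0 and 1 was thus close to its level in cells that lack the endoderm program, while Cubn in clusters 0 and 1 and the 3 other members were clearly above. Scrublet, a doublet caller, marked 56 of the 784 cells of cluster 4 and 1 of the 595 other endoderm-like cells without 4OHT. Leaving out all cells it marked changed the ratios between libraries reported below by less than 5%.

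With 4OHT, Amn stood at 4.05 CPM (3.49 to 4.68) in cluster 0 and at 3.80 CPM (3.21 to 4.46) in cluster 1, and Cubn at 13.6 CPM (12.6 to 14.7) and 20.1 CPM (18.7 to 21.5). The levels of Cubn within these clusters were thus under those without 4OHT, and the intervals do not overlap. Lrp2 stood at 185 and 211 CPM, Dab2 at 456 and 523 CPM, and Lrpap1 at 1970 and 1641 CPM in clusters 0 and 1. The 27 cells assigned to cluster 4 had a median of 3295 UMIs and 0.11% mitochondrial UMIs, against 17860 UMIs and 6.68% in the 784 cells without 4OHT. They held 1 Amn UMI and 11 Cubn UMIs in all, and 26 of them had no Amn UMI.

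**Figure D3:**
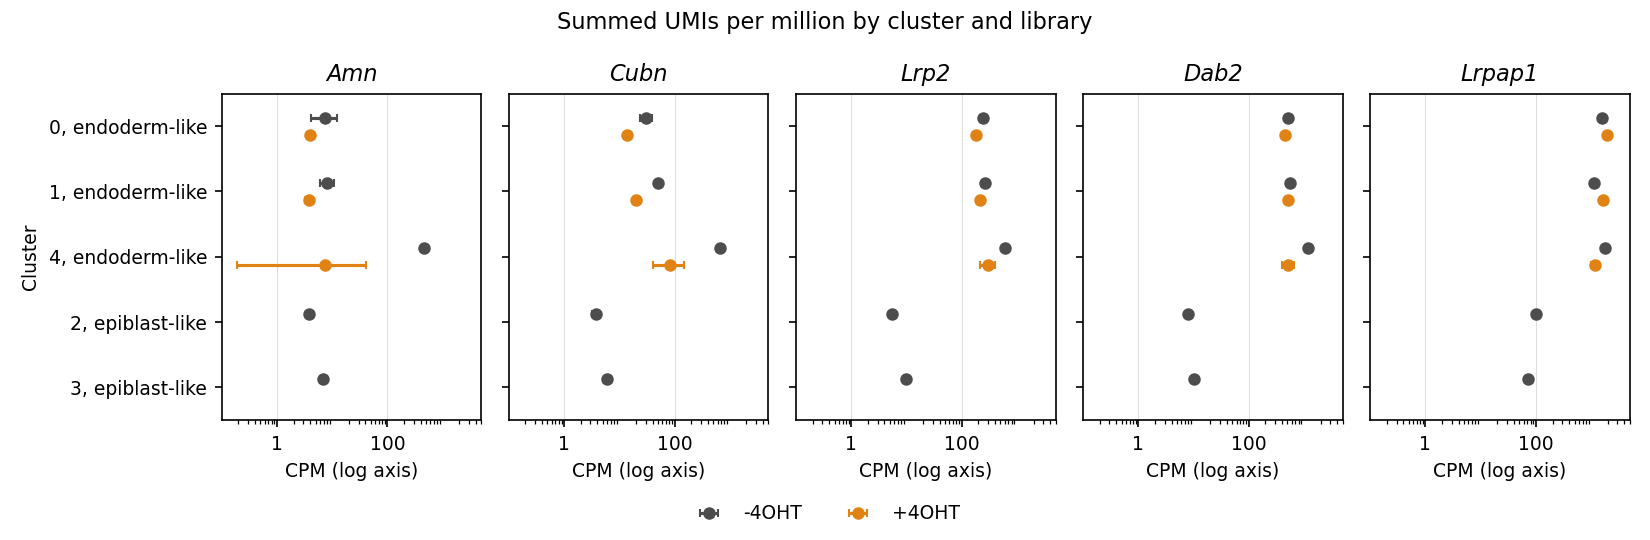
CPM of summed UMIs (log axis) of each gene by cluster in the -4OHT (grey) and +4OHT (orange) library, with 95% exact Poisson intervals. Amn and Cubn are at 468 and 653 CPM in cluster 4 of the -4OHT library and under 50 CPM in clusters 0 to 3 of both libraries; epiblast-like clusters had under 5 cells with 4OHT and are shown without 4OHT only.

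Over the endoderm-like class as a whole, Amn was 80.0-fold lower with 4OHT than without (3.94 against 315 CPM, 95% counting interval of the fold 71.7 to 89.5). Cubn was 27.0-fold lower (16.7 against 451 CPM, 25.6 to 28.6). Lrp2 was 2.53-fold lower (198 against 499 CPM) and Dab2 1.99-fold lower (487 against 967 CPM), while Lrpap1 was 1.13 times its level without 4OHT (1817 against 1609 CPM). A ratio of at least 2-fold downward, among genes with at least 20 CPM in 1 library, was reached by 3 of the 5 members and by 3.49% of such genes. With 1 library a condition these ratios have no replicate check and no test.

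Most of these ratios rested on cluster 4. Without it, the ratio of +4OHT to -4OHT was 0.497 for Amn (0.376 to 0.666), 0.375 for Cubn (0.332 to 0.424), 0.765 for Lrp2, 0.894 for Dab2 and 1.47 for Lrpap1, against 0.0125, 0.0370, 0.395, 0.504 and 1.13 with it. Over all kept cells, where the -4OHT library is mostly epiblast-like, the ratio was 0.0514 for Amn and 0.155 for Cubn but 1.61 for Lrp2, 2.08 for Dab2 and 4.01 for Lrpap1. The direction for Lrp2 and Dab2 thus depended on the cells taken. Outside cluster 4 Amn was low and near its level in epiblast-like cells, although its interval in cluster 1 without 4OHT lay above that level. Whether its ratio of 0.497 there is a change in its expression was not tested.

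Whether the pair was transcribed in the same cells was asked with every cell thinned to 5000 UMIs, which left out 46 endoderm-like cells without and 105 with 4OHT. Without 4OHT, 45.4% of 1333 endoderm-like cells had an Amn UMI, 56.4% a Cubn UMI and 41.3% both (95% exact binomial interval 38.6% to 44.0%). The product of the single shares was 25.6%, so that joint detection was 1.61 times that product. Of the cells with Amn, 90.9% also had Cubn, against 27.7% of the cells without Amn. Of the cells with Cubn, 73.1% also had Amn, against 9.47% of those without. Unthinned, both were seen in 49.9% of 1379 cells.

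Joint detection followed the clusters. Of the 550 cells with both, 543 were in cluster 4, 6 in cluster 1 and 1 in cluster 0. Within cluster 4, 78.2% of 752 cells had Amn, 87.6% had Cubn and 72.2% had both (68.9% to 75.4%), a little above the product of 68.5%. Of the cluster 4 cells with Amn, 92.3% also had Cubn, against 70.7% of those without Amn. In cluster 1 without 4OHT, 2.75% had Amn and 18.0% had Cubn, and in cluster 0 the shares were 3.31% and 11.6%. In epiblast-like cells at the same depth the shares were 2.27% for Amn and 2.06% for Cubn. Amn in clusters 0 and 1 was thus within counting error of its share there, and Cubn was above its own.

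With 4OHT, 1.70% of 5957 endoderm-like cells had an Amn UMI, 6.03% a Cubn UMI and 0.302% both (0.179% to 0.477%), or 18 cells, of which none was in cluster 4. Cluster 5 of the same library was unnamed, with 3 endoderm and 3 trophectoderm markers expressed. There Amn was seen in 1.53% of 196 cells (0.317% to 4.41%), and Cubn, counted on its own, in the same share. The endoderm-like share with Amn lay within that interval and the share with Cubn above it. With 3 cells for each gene in cluster 5, the background with 4OHT is only loosely known, and whether that cluster gives it was not tested. In the endoderm-like cells with 4OHT the product of the single shares was 0.102%, so that joint detection was 2.96 times it. Of those cells with Amn, 17.8% also had Cubn, against 5.82% of those without. Without 4OHT, cluster 4 aside, the pair was seen together in 1.20% of cells (0.486% to 2.47%).

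Megalin and the adaptor were seen far more widely than the pair. Lrp2 was detected in 75.2% of thinned endoderm-like cells without 4OHT and in 51.0% with it, Dab2 in 92.6% and 80.2%, and Lrpap1 in 99.02% and 99.6%. In epiblast-like cells the shares were 3.40% for Lrp2, 3.64% for Dab2 and 34.4% for Lrpap1. All 3 receptor transcripts, Amn, Cubn and Lrp2, were seen in 36.2% of endoderm-like cells without 4OHT, in 63.3% of those in cluster 4, and in 0.235% with 4OHT. Cells with Dab2 and Lrpap1 but neither Amn nor Cubn made up 33.1% without and 73.5% with 4OHT, so that most cells with 4OHT had transcripts of the adaptor and the chaperone and none detected of the pair.

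**Figure D4:**
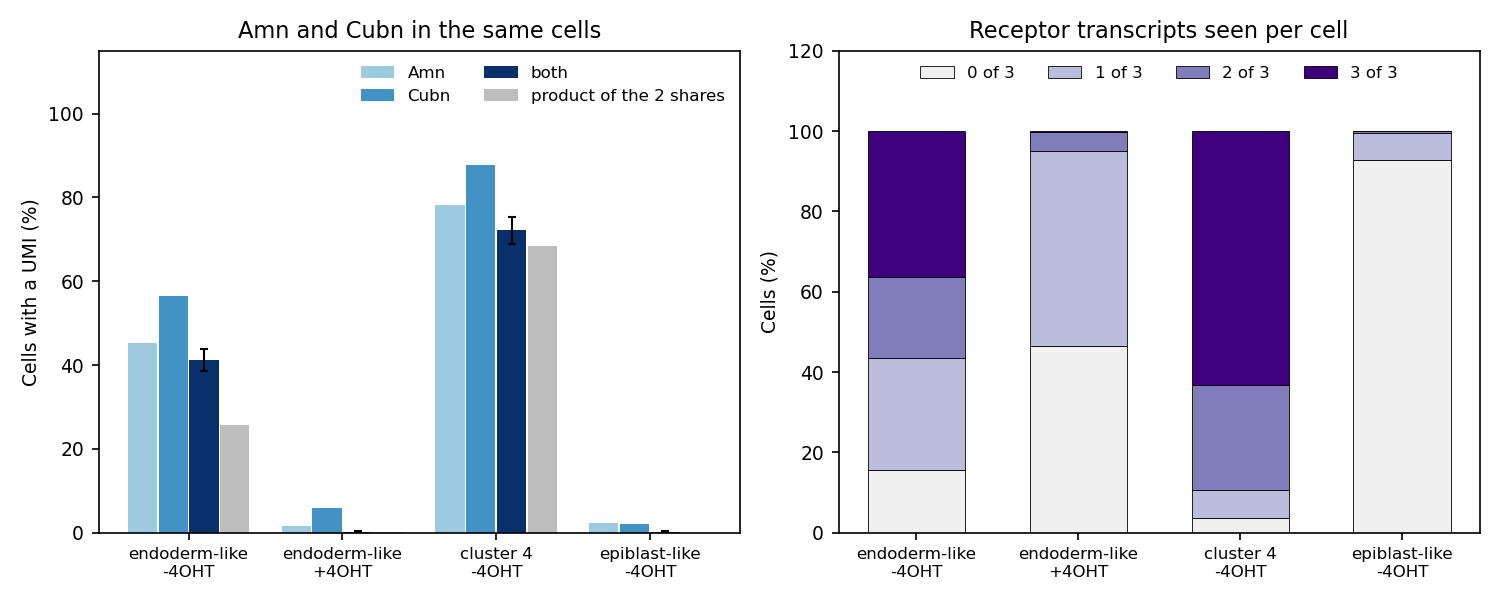
Left, percent of cells (each thinned to 5000 UMIs) with a UMI of Amn, Cubn or both, beside the product of the single shares; error bars are 95% exact binomial intervals. Right, percent of the same cells with 0 to 3 of Amn, Cubn and Lrp2 detected: all 3 were seen in 36.2% of endoderm-like cells without 4OHT and 0.235% with it.

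Cells with both transcripts differed from cells with neither in measures not used to pick them, though cells of 1 library are not replicates and these are descriptions. Without 4OHT, 98.7% of the cells with both were in cluster 4. Of those with neither, 9.13% were in cluster 4, 29.5% in cluster 0 and 61.4% in cluster 1. The values below are thus mostly a comparison of cluster 4 with clusters 0 and 1, and differences within a cluster were not tested. Without 4OHT, Lrp2 stood at 683 CPM in the 550 cells with both and 227 CPM in the 526 cells with neither, Dab2 at 1296 and 500.3 CPM, and Lrpap1 at 1910 and 1164 CPM. The cells with both were deeper, with a median of 18667 UMIs against 11944. Pou5f1 stood at 19.9 CPM and was seen in 29.8% of the cells with both, unthinned, against 6.91 CPM and 6.46% of those with neither. Epiblast markers summed to 3830 CPM in cells with both and 1047 CPM in cells with neither, and the 10 endoderm markers to 3556 and 6766 CPM.

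Markers of later endoderm were mixed with respect to the pair. Without 4OHT, 7 of 10 visceral endoderm markers were higher in cluster 4 than in cluster 1, among them Spink1, a trypsin inhibitor (111 against 18.7 CPM), and Apom, a lipoprotein component (9.45 against 0.740 CPM). Most of the 7 were low: Apoa1, Apoa4, Apob, Apom and Fgb were at 0.865 to 9.45 CPM in cluster 4. Ttr was nearly equal in clusters 4 and 1 (33.9 against 29.2 CPM). The retinoic acid hydroxylase Cyp26a1 went the other way (67.7 against 572 CPM), as did Rbp4 (2.20 against 41.8 CPM). Cyp26a1 set the direction of the summed list, which was 237 CPM in cluster 4 and 665 CPM in cluster 1. Against cluster 0, 6 of the 10 markers were higher in cluster 4 and 4 were lower. Without Cyp26a1 the list summed to 169 CPM in cluster 4, above the 93.2 CPM in cluster 1 and below the 298 CPM in cluster 0. Afp, a defining gene of later visceral endoderm, was near 0, at 0.266 and 2.40 CPM in clusters 4 and 1. Of 10 parietal endoderm markers, 9 were lower in cluster 4 than in cluster 1 and all 10 lower than in cluster 0. The part of joined droplets in the epiblast markers of cluster 4 was not tested.

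Over the 1379 endoderm-like cells without 4OHT, the genes whose levels ran most closely with Amn among 10208 compared were Npl, a sialic acid lyase (r = 0.751), Folr1 (0.699) and the glucose transporter Slc2a3 (0.690). For Cubn they were Slc2a3 (0.752), Folr1 (0.706) and Npl (0.694). With 4OHT the same values for Amn were 0.165, 0.092 and 0.164. For Lrp2 they were Folr1 (0.529), the protease Htra1 (0.478) and the cathepsin Ctsl (0.474). Amn and Cubn themselves correlated at 0.781 without and 0.087 with 4OHT. Unthinned, 3.40% of the 6062 cells with 4OHT had an Amn UMI and 14.0% a Cubn UMI, against 53.5% and 63.7% without. With so few cells holding a UMI of Amn, its correlations with 4OHT cannot be set against those without as a measure of coupling. Joint detection of the pair was above the product of the single shares in both libraries. All these correlations describe cells of 1 library each that share depth and cluster, and they mix clusters.

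Of the 76 other genes of the uptake route, 50 reached 20 CPM in endoderm-like cells of 1 library. Of these, 2 were at least 2-fold lower with 4OHT, Apoe (254 to 35.4 CPM) and Folr1 (281 to 87.4 CPM), and 3 were at least 2-fold higher, Lrp5 (10.9 to 24.5 CPM), Clu (78.6 to 176 CPM) and Rbp4 (24.1 to 82.4 CPM). The background over all such genes was 8.44% upward, and the median ratio of the 50 was 1.10. The coat and adaptor genes lay between, with Cltc at 658 and 528 CPM and Myo6 at 149 and 171 CPM without and with 4OHT.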

How the data were processed

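For the 9 bulk libraries (directional kit, single-end), the deposited table holds unnormalised read counts by gene. For the 2 single-cell libraries the deposited matrices hold unnormalised UMI counts by gene and barcode. The submitters' processing notes name Cell Ranger, bcl2fastq and mm10. Not given in the sources used here were the bulk aligner, counter and use of strand. A different cell count after filtering is stated in the study's text without the filter's limits, so that clusters and names here were rebuilt. The members, the lists and the tests were chosen with earlier results of these data known. Bulk totals were 8019631 to 11642571 reads. Bulk counts were analysed with edgeR 4.0.16 (TMM, filterByExpr, quasi-likelihood test, all 9 libraries in 1 fit) in R 4.3.3, and 35 blank rows were left out. Libraries of a group differed beyond sampling noise. Replicate numbers were taken to pair DP and Pdgfra+, which the labels do not state: deviations from group means correlated at 0.271, 0.477 and 0.321 within a number. RPKM used GENCODE vM21 exon lengths. Cells were clustered with scanpy 1.11.5 and leidenalg 0.10.2 (2000 variable genes without members or list genes, 20 components, 20 neighbours, resolution 0.2). A cluster took the name with the most markers at 20 CPM or more and at least 25% of their highest cluster, with 3 or more markers and 3 more than any other name. This rule was set, and revised, after the clusters had been seen, and the thinning was recoded once after first values. Doublets were kept: Scrublet marked 173 of 5324 and 1 of 6299 cells, so that its calls with 4OHT were not relied on. Single-cell values have no test. Named list genes were, per role and bulk comparison, up to 3 past the threshold with the largest change, with Lrp1, Vldlr, Cd320 and Apoe in all; in single cells those with a 2-fold ratio; and the 3 genes most alike each member. Some list genes that the rule names are not reported here. Protein sequences were not used here.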

Additional observations from a re-analysis of the deposited data

How the results depend on the processing

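In DP against Oct4+ and Oct4+ against Pdgfra+, the 5 members kept direction and call under all 7 alternatives of scaling, filter, tool, samples and replicate block, and without each library in turn. In DP against Pdgfra+, Amn (log2 fold change 1.99 to 2.04) and Cubn (1.86 to 1.93) kept their calls under the same 7. With each library left out in turn, Amn ranged from 1.83 to 2.24 and Cubn from 1.74 to 2.16, the count of members past the threshold from 0 to 2, and that of the other list genes from 0 to 4. The block by replicate number over 9 libraries gave 1.99 for Amn and 1.86 for Cubn and changed no member's call in any comparison. Over all genes tested, pairing by number was apparent for DP and Pdgfra+ only. Lrp2 passed the adjusted p in DP against Pdgfra+, but not the fold, without a filter (0.0162) and with only the 6 libraries compared (0.0371, and 0.0240 with the block), and its adjusted p ranged from 0.0162 to 0.202 over the 7 alternatives in edgeR and DESeq2.

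The ratios of +4OHT to -4OHT in endoderm-like cells moved beyond counting error as follows, for Amn, Cubn, Lrp2, Dab2 and Lrpap1 where several are given. With the stricter cell filter they were 0.0167, 0.0628, 0.598, 0.603 and 1.47, over all kept cells 0.0514, 0.155, 1.61, 2.08 and 4.01, and without cluster 4 (chosen after seeing the data, as was the limit of 2 times the median UMI count, which moved none) 0.497, 0.375, 0.765, 0.894 and 1.47. Lrp2, Dab2 and Lrpap1 were 0.412, 0.528 and 1.18 without a cell filter and 0.386, 0.490 and 1.09 without doublet calls. At resolution 0.5, Cubn to Lrpap1 were 0.0401, 0.386, 0.521 and 1.03, and joint detection of Amn and Cubn without 4OHT was 36.7%. Joint detection followed depth: 20.9% and 0.0496% (-4OHT and +4OHT) at 2000 UMIs, 49.1% and 0.498% at 8000, and 49.9% and 0.907% unthinned, and it was 1.20% without 4OHT when cluster 4 was left out. The cause of the other moves was not tested. The depth of the +4OHT cells in cluster 4 (6 of 27 with 5000 UMIs or more) limits what can be said of them, and 1 library per condition limits every single-cell ratio.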
